A study of Arabidopsis thaliana with 27 samples.

Results

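The step from 7-8 to 9-10 days after flowering was described in developing Arabidopsis thaliana seeds of the CL37 line, in 3 libraries of 9-10 days (A, B and C) against 3 libraries of 7-8 days (A, B and C), which are 6 of the 27 RNA-seq libraries of the study. These 6 libraries were chosen by their labels alone, and the count tables were used without the 5 summary lines of the counting tool. CL37 carries the fae1 mutation, which stops the elongation of fatty acids to very long chains, and a castor bean oleate hydroxylase (RcFAH12) expressed in the seed, so that its oil holds hydroxy fatty acids. The study compared it with its parent fae1, which has the mutation without the hydroxylase, and with PDAT, which is CL37 with a further castor gene, the acyltransferase RcPDAT1a. Each line was sampled at 7-8, 9-10 and 11-12 days after flowering. Each genotype is 1 line. Plants of the lines stood randomized in 1 growth chamber in constant light. Siliques of many plants were pooled per line and frozen, seeds were taken out of the frozen siliques, and 3 biological replicates were made per line and stage. RcFAH12 was not analysed here, since the count tables list Arabidopsis genes, and FAE1 RNA does not test the genotype because the gene is mutated in all of the lines.

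In Arabidopsis, seeds of these ages pass from morphogenesis to filling. The embryo stops dividing, takes over the space of the endosperm and stores protein and oil, while the seed coat makes tannins and mucilage and later suberin and cutin barriers. The AFL regulators (ABI3, FUS3 and LEC2) together with LEC1 switch on storage genes through the RY element of their promoters, and bZIP proteins such as ABI5, EEL and bZIP67 bind ACGT elements beside it. Seed oil is assembled from fatty acids made in the plastid under the regulator WRINKLED1, and is kept in oil bodies coated with oleosins. Hydroxy fatty acids made by the castor enzyme are known to lower the oil content of Arabidopsis seeds.

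Gene counts were 16265206, 4126510 and 5030078 in the A, B and C libraries of 9-10 days, against 9765992, 9650036 and 8848731 in those of 7-8 days. The 20 most abundant genes held 37.9% to 38.9% of the counts at 9-10 days and 14.5% to 17.8% at 7-8 days. Alignments that were not unique made up 7.53% to 12.3% and 10.4% to 15.8% of these stages. The first principal component of the 6 libraries held 73.2% of the variance and separated the stages. Of 33602 genes, 18897 passed the filter on low counts and were tested with edgeR's quasi-likelihood test, and a gene is called changed at a Benjamini-Hochberg adjusted p below 0.05. Levels are given in CPM, counts scaled to a common library size with TMM factors. Differences are log2 folds of 9-10 over 7-8 days, given ± an approximate standard error. This error was worked back from the test, as the size of the log2 fold over the square root of the F statistic. In whole seeds, fewer cells of a type and less RNA per cell cannot be told apart.

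At 9-10 days 4869 genes had changed, 25.8% of those tested. Higher levels were called for 2492 (13.2%) and lower levels for 2377 (12.6%). The counts of each gene list below are to be read beside these shares. The change was at least 2-fold for 1272 of the higher (6.73% of all tested) and 1431 of the lower genes (7.57%), at least 8-fold for 265 and 317, and at least 32-fold for 107 and 128. The levels of the 2 stages did not overlap for 4487 higher (23.7%) and 4444 lower genes (23.5%), called or not, together 47.3% of those tested. With a library left out, the count of changed genes was 2753 (without 7-8 A), 3155 (7-8 B), 4605 (7-8 C), 3385 (9-10 A), 2938 (9-10 B) and 2905 (9-10 C). It was 3248 when the share of alignments that were not unique entered the fit as a covariate, called the covariate from here on.

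The sequences shown are those in front of changed members of the storage, oil body, LEA and cell division groups, namely those with the highest CPM that hold the letters searched. Each is the 250 bases before the annotated start of the gene in RefSeq's TAIR10.1 genome, written 5′ to 3′ on the strand of the gene. In the first 4, capitals mark CATGCA, the core of the RY element, and ACGTG, the core of the ACGT elements, on either strand, and where copies overlap the capitals run on. In the last 2, capitals mark TTCCCGC, the core of the E2F site of cell cycle genes, on either strand.
SESA3 (chr4:13611546-13611795, plus strand): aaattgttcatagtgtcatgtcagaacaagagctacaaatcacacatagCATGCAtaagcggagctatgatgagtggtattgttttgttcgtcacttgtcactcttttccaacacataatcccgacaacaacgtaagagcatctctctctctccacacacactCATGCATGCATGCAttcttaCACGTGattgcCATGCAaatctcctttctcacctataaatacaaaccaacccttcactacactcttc
CRU3 (chr4:14087306-14087555, plus strand): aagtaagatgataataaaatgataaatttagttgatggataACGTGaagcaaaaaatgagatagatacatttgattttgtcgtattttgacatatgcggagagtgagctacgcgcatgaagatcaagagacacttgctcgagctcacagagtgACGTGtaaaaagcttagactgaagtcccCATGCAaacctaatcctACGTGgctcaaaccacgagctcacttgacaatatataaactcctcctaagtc
OLEO1 (chr4:12900180-12900429, plus strand): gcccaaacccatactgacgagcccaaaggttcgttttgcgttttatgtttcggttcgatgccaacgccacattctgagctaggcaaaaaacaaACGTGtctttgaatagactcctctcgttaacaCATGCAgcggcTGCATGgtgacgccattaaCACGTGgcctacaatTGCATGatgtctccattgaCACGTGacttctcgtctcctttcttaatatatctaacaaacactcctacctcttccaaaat
LEA, AT2G21490 (chr2:9207126-9207375, minus strand): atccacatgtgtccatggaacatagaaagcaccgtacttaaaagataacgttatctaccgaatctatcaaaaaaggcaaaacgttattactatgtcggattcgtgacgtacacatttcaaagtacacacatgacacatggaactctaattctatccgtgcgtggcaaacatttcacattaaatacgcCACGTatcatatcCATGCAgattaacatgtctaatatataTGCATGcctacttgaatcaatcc
PCNA2 (chr2:12651754-12652003, minus strand): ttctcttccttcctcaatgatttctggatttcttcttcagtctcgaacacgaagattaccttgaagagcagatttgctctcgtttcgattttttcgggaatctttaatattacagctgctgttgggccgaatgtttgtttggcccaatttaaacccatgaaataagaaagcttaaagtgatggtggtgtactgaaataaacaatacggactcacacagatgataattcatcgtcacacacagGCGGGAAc
MCM2 (chr1:16969964-16970213, plus strand): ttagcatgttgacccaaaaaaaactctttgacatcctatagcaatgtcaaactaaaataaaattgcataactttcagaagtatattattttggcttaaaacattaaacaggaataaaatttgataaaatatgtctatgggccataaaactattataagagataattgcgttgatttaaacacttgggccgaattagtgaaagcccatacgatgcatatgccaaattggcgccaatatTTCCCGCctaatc
The SESA3 window holds 7 copies of CATGCA, of which 5 overlap in a run from base -87 to -74 counted from the gene start, and an ACGT palindrome counted on both strands. CRU3 holds 1 CATGCA and 3 ACGTG, OLEO1 holds 3 and 5, and the LEA gene holds 2 and 1. The E2F core of PCNA2 lies at -8 to -2 and that of MCM2 at -13 to -7.

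Among windows of the same length for 18762 tested genes, 7.76% held the RY core, 23.6% the ACGT core and 1.24% the E2F core shown above. The RY core was found in front of 11 of the 13 storage protein genes (84.6%), 10 of 18 oil body genes (55.6%) and 7 of 23 LEA genes (30.4%). The ACGT core was found in front of 19 of 23 LEA genes (82.6%), 9 of 13 storage protein genes (69.2%) and 20 of 32 ER stress genes (62.5%). Some lists that did not rise as a group also held these letters often. The RY core stood before 4 of 11 embryo patterning genes (36.4%) and 3 of 9 gibberellin genes (33.3%). The ACGT core stood before 10 of 18 jasmonate genes (55.6%) and 8 of 17 tannin and flavonoid genes (47.1%). For cell division genes the shares were 9.09% and 24.2%. Over all genes that rose, 11.8% held the RY core, against 7.68% of those that fell. The ACGT core was held by 30.3% of the genes that rose and 24% of those that fell. The E2F core was held by 2.28% of the genes that fell and 0.763% of those that rose, and by 6 of 33 cell division genes (18.2%). AACGG, the core of the mitosis-specific activator element, was held by 14 of the 33 (42.4%), against 22.1% of all windows. The AW element bound by WRINKLED1, which is CNTNG followed 7 bases later by CG, was held by 4 of 40 genes of plastid fatty acid synthesis (10%), against 9.52% of all windows. Both were searched on either strand. These are letter matches and not sites shown to be bound.

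**Figure D1:**
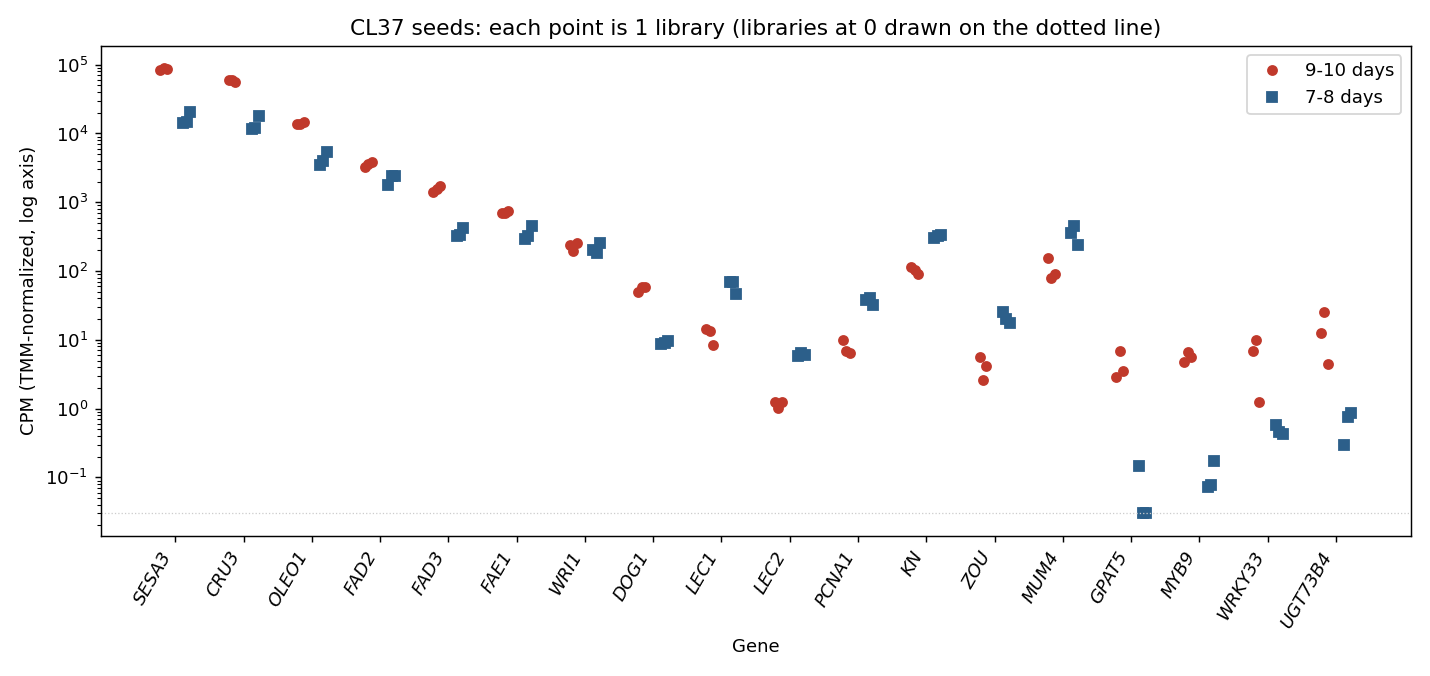
TMM-scaled CPM of 18 genes on a log axis, with 1 point per CL37 library, 9-10 days (red circles) left of 7-8 days (blue squares), and libraries at 0 on the dotted line. The levels of the stages do not overlap for any of these genes except WRI1, whose libraries lie between 181.4 and 253.6 CPM at both ages.

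Seed storage protein genes rose together. Of the 13 tested, 12 rose and none fell, with a median log2 fold of 2.07 against 0.00 over all tested genes. All 13 had higher levels in every library of 9-10 days, against 23.7% of all tested genes. Their summed level was 346261, 360608 and 344128 CPM in the 9-10 A, B and C libraries, against 65610, 65683 and 96181 CPM in the 7-8 A, B and C libraries. The albumin gene SESA3 (AT4G27160, chromosome 4, 13611796 to 13612563, plus strand) had the highest CPM of any gene at 9-10 days, with 82726, 89025 and 88070 CPM, against 14143, 14778 and 20540 CPM at 7-8 days. The libraries of each stage lay close together and the stages did not overlap. Its log2 fold was 2.39 ± 0.58 (adjusted p 0.00645, edgeR quasi-likelihood test with Benjamini-Hochberg adjustment, as for all adjusted p values below). SESA4, its neighbour, gave 37663, 42412 and 39758 CPM against 5707, 5143 and 7803 CPM (2.68 ± 0.58, adjusted p 0.00376). The SESA1 to SESA4 genes lie side by side and are near-identical, and reads that match more than 1 of them may have been lost as not unique, so the values of single copies are uncertain.

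CRU3 (AT4G28520), a subunit of the globulin cruciferin, gave 59054, 60378 and 56234 CPM at 9-10 days, against 11700, 12106 and 17997 CPM at 7-8 days. The 7-8 C library was the highest of its stage for CRU3 as for SESA3, but far below the lowest library of 9-10 days. Its log2 fold was 2.07 ± 0.72 (adjusted p 0.0380), and it lost the call without any 1 of the 6 libraries (adjusted p 0.0566 to 0.121), with the covariate (0.0877) and with no filter on low counts (0.0796). The cupin AT1G03890 had the largest fold of the group, with 3133, 3133 and 3517 CPM against 317.1, 250.5 and 440.4 CPM (3.28 ± 0.87, adjusted p 0.0102). The cupin AT2G18540, at 1.35 ± 0.53, did not pass the test (adjusted p 0.0627). Fewer of the group passed with a library left out, except 7-8 C. The number that rose was 4 without 7-8 A, 4 without 7-8 B, 12 without 7-8 C, 9 without 9-10 A, 8 without 9-10 B and 7 without 9-10 C. It was 8 with the covariate and 9 with no filter. All 13 rose with DESeq2, with a replicate block and in fits to only the 9 or only the 6 CL37 libraries. The same held when the A libraries of fae1 were dropped from the fit. In the authors' pooled FPKM table, SESA2, SESA3, CRU1 and CRU3 are listed at 0 at 9-10 days, so FPKM was not used for these genes.

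Oil body proteins rose as well, at smaller folds. Of 18 tested, 12 rose and 1 fell, with a median of 0.94. Their summed level was 42163, 42553 and 44409 CPM at 9-10 days, against 13711, 14847 and 18561 CPM at 7-8 days. OLEO1, the main seed oleosin, which keeps oil bodies small, gave 13622, 13829 and 14717 CPM against 3513, 3951 and 5363 CPM. Its stages did not overlap, and its log2 fold was 1.72 ± 0.47 (adjusted p 0.0121; 0.0553 without the 7-8 A library). The caleosin ATS1 (1.98 ± 0.50) and the peroxygenase ATPXG2 (2.31 ± 0.58, adjusted p 0.00807), both calcium-binding oil body proteins, rose with it. HSD2, a relative of steroleosin, was the member that fell, with 94.2, 70.6 and 62.2 CPM against 203.6, 171.5 and 112.0 CPM (-1.10 ± 0.30, adjusted p 0.0119). The number that rose was 5 without 7-8 A and 7 without 7-8 B, and 9 to 12 without any other library, and none fell without 7-8 A or 9-10 C.

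Late embryogenesis abundant (LEA) proteins, hydrophilic proteins that protect the drying seed, had a median of 2.38. Of 23 tested, 12 rose and 2 fell. The dehydrin gene RAB18 gave 27.9, 36.3 and 8.16 CPM at 9-10 days, against 1.09, 0.766 and 1.39 CPM at 7-8 days (4.48 ± 1.27, adjusted p 0.0145). LTI30, another dehydrin, gave 24.5, 47.9 and 9.42 CPM against 1.53, 1.30 and 1.74 CPM (4.14 ± 0.75, adjusted p 0.00130). For both, the stages did not overlap, and within 9-10 days the C library was the lowest and the B library the highest. The gene named LEA (AT2G21490), whose window is shown above, gave 632, 760 and 779 CPM against 86.8, 109.8 and 166.5 CPM (2.58 ± 0.60, adjusted p 0.00547). COR47 (-1.17 ± 0.29) and ERD14 (-0.81 ± 0.29), dehydrins of vegetative tissue under cold and drought, fell. EM1, a marker of late maturation, was still at 2.56, 3.35 and 0.419 CPM at 9-10 days, against 0.218, 0.153 and 0.0868 CPM at 7-8 days, and did not pass (adjusted p 0.205). The number that rose was 7 without 7-8 A, 7 without 7-8 B and 9 to 13 without any other library, and RAB18 lost its call without 7-8 A or 7-8 B. The number that fell was 1 without any 1 library except 7-8 C, with the replicate block, with the covariate and with no filter.

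**Figure D2:**
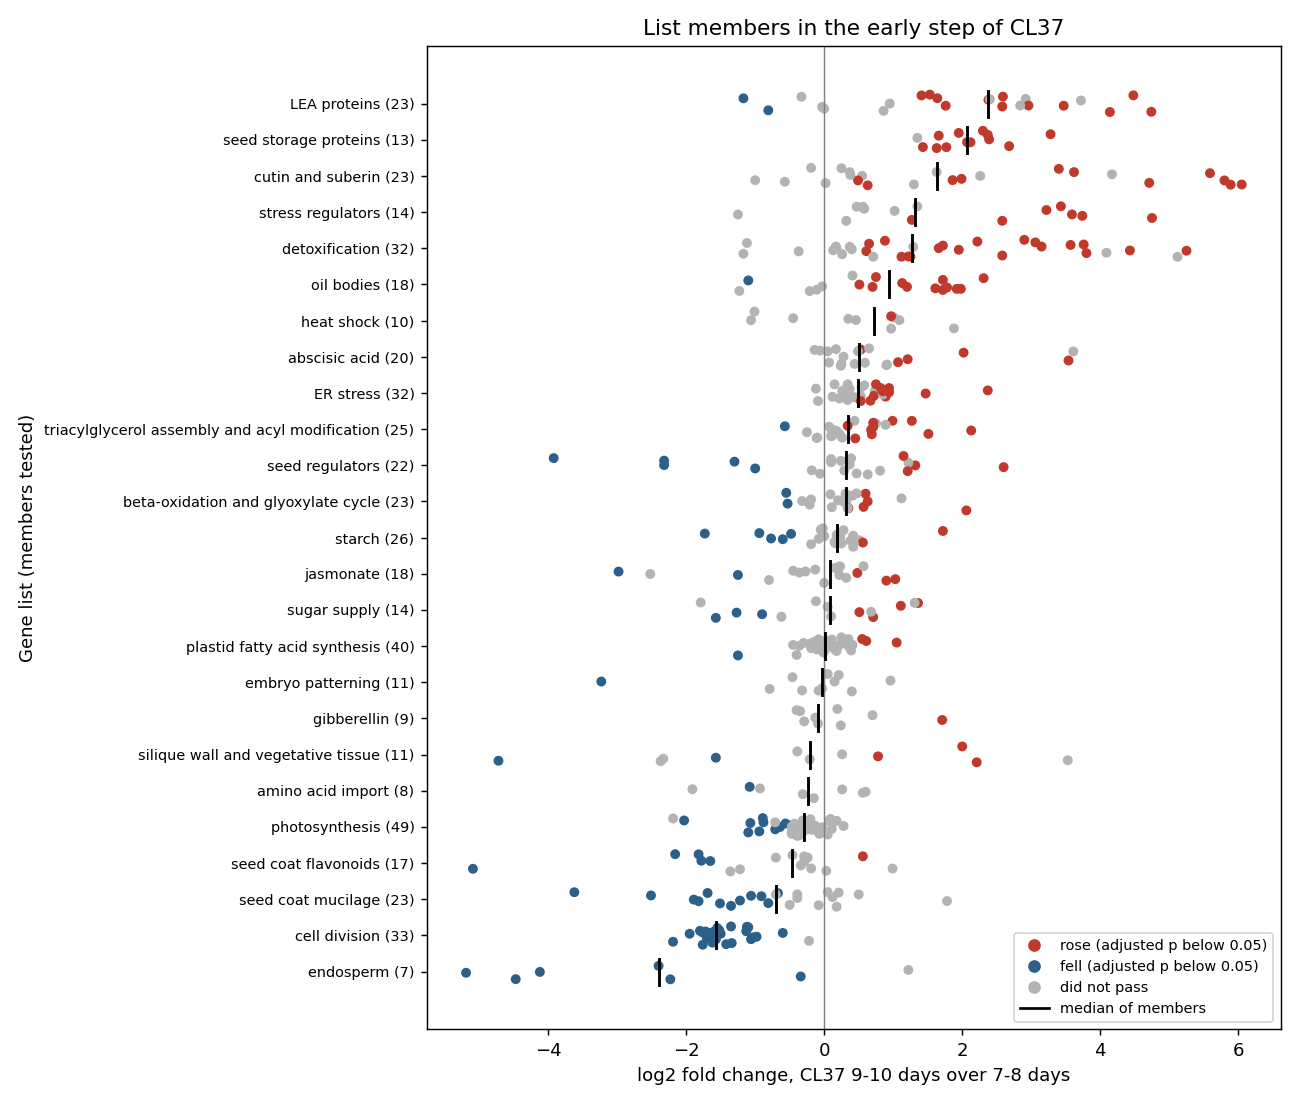
Each point is 1 tested member of a gene list, placed by its log2 fold of 9-10 over 7-8 days in CL37 (red, rose; blue, fell; grey, did not pass at an adjusted p of 0.05), with the median of each list as a black bar. Lists are ordered by median, from LEA proteins (2.38) and storage proteins (2.07) to cell division (-1.57) and endosperm (-2.40).

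Genes that modify fatty acids and assemble oil rose in part, while most genes of plastid fatty acid synthesis did not pass the test. Of 25 tested genes of acyl modification and triacylglycerol assembly, 10 rose and 1 fell (median 0.34). FAD3, the desaturase that makes linolenate, had the largest rise, with 1427, 1557 and 1741 CPM at 9-10 days against 324.1, 331.5 and 422.7 CPM at 7-8 days (2.13 ± 0.45, adjusted p 0.00326). The stages were far apart. FAD2, which makes linoleate from the oleate that RcFAH12 also uses, gave 3266, 3573 and 3818 CPM against 1781, 2418 and 2442 CPM (0.68 ± 0.21, adjusted p 0.0235), also without overlap. FAE1 itself, whose product is inactive here, gave 706, 690 and 739 CPM against 296, 326 and 457 CPM (0.99 ± 0.30, adjusted p 0.0187). FAD2 lost its call without 7-8 A, 9-10 B or 9-10 C and with the covariate, and FAE1 without 7-8 A, 7-8 B or 9-10 C.

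Among the acyltransferases that end the pathway, DGAT3 passed the test. DGAT1, the main enzyme that adds the last acyl group, gave 107.9, 95.9 and 109.9 CPM against 75.6, 64.5 and 91.7 CPM (0.44 ± 0.19, adjusted p 0.0849), with no overlap but without passing the test. DGAT2 (0.26 ± 0.15, adjusted p 0.219), the plant's own PDAT1 (-0.25 ± 0.14, adjusted p 0.364), its relative AT3G44830 (0.89 ± 0.41, adjusted p 0.117) and ROD1, which moves phosphocholine between diacylglycerol pools (0.10 ± 0.15, adjusted p 0.680), did not pass either. DGAT1 and AT3G44830 gained the call in the fit to only the 6 CL37 libraries, and when the A libraries of fae1 were dropped. DGAT1 also gained it when CL37 7-8 C was left out, and AT3G44830 with only the 9 CL37 libraries. DGAT3, a soluble acyltransferase, rose by 1.27 ± 0.25 (adjusted p 0.00217), and GPAT9, which makes the first acylation, by 0.34 ± 0.11 (adjusted p 0.0294). CB5-D, a cytochrome b5 that hands electrons to desaturases, fell by 0.57 ± 0.21 (adjusted p 0.0451). Per length, by the authors' pooled FPKM at 9-10 days, FAD2 stood at 2664, FAD3 at 1259, FAE1 at 489, ROD1 at 224, DGAT1 at 57.1, DGAT2 at 41.8, AT3G44830 at 6.85 and PDAT1 at 2.82 FPKM. The number that rose was 6 without 7-8 A, 7-8 B or 9-10 C, and 7 to 10 without the others. None of the list fell without any 1 library except 7-8 C, with the replicate block, with the covariate or with no filter.

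Of 40 genes of plastid fatty acid synthesis, 3 rose (7.5%) and 1 fell (2.5%), against 13.2% and 12.6% of all tested genes, and the median was 0.01. With DESeq2's size factors, with upper quartiles or with only the 6 CL37 libraries 3 rose and 4 fell, and with the DESeq2 test 3 rose and 6 fell. WRI1, the regulator of this pathway, gave 239.0, 195.3 and 252.2 CPM at 9-10 days, against 205.6, 181.4 and 253.6 CPM at 7-8 days. These levels overlapped, and its log2 fold was 0.10 ± 0.16 (adjusted p 0.679). BCCP2, which carries biotin in the acetyl-CoA carboxylase of plastids, gave 510, 466 and 526 CPM against 369, 444 and 584 CPM (0.11 ± 0.19, adjusted p 0.723). The summed level of the group was 14109, 13547 and 14103 CPM at 9-10 days, inside the spread of 7-8 days (11497, 12183 and 15443 CPM). ACP4, an acyl carrier protein of leaves, fell by 1.25 ± 0.31 (adjusted p 0.00672). The 3 that rose act at the end of the pathway, the stearoyl-ACP desaturases AT5G16240 (1.05 ± 0.27, adjusted p 0.00850) and SSI2 (0.61 ± 0.22, adjusted p 0.0411) and the thioesterase FATA (0.55 ± 0.18, adjusted p 0.0293). SSI2 and FATA lost their calls without 7-8 A, 7-8 B or any 1 library of 9-10 days and with the covariate, and 6 genes of the group rose without 7-8 C and 1 without any other library.

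Carbon supply genes moved in both directions. Of 14 sugar supply genes, 4 rose (28.6%) and 3 fell (21.4%), against 13.2% and 12.6% of all tested genes (median 0.08). The sucrose synthase SUS2, the filling-stage isoform, gave 1350, 1359 and 1475 CPM against 419, 463 and 749 CPM (1.36 ± 0.44, adjusted p 0.0280), while SUS1 gave 11.1, 5.41 and 11.9 CPM against 35.4, 29.9 and 21.7 CPM (-1.57 ± 0.41, adjusted p 0.00954). The endosperm sucrose transporter SUC5 fell by 1.27 ± 0.33 (adjusted p 0.00960). Fewer rose with a library left out, 0 without 7-8 A, 2 without 7-8 B and 1 without any 1 library of 9-10 days, and SUS2 lost its call in each of these, with the covariate and with no filter. Of 26 starch genes, 2 rose (7.69%) and 5 fell (19.2%), beside the same shares (median 0.19). The falling ones include the synthesis gene GBSS1 (-0.77 ± 0.19, adjusted p 0.00755). The beta-amylase BAM3, which breaks down plastid starch, gave 33.9, 46.1 and 43.1 CPM against 12.5, 12.8 and 11.7 CPM (1.72 ± 0.18, adjusted p 2.202e-05), with the stages well apart. Fewer starch genes fell without 1 library, 2 without 9-10 B and 3 without 7-8 A, 7-8 C or 9-10 A. Of 8 amino acid importers, the cationic transporter CAT6 fell (-1.08 ± 0.23, adjusted p 0.00364), and the list's median was -0.23.

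Among regulators of maturation, LEC1 and LEC2 fell while DOG1 and bZIP factors rose. Of 22 seed regulators tested, 4 rose (18.2%) and 5 fell (22.7%), against 13.2% and 12.6% of all tested genes (median 0.32). LEC1, which acts in the young embryo, gave 14.5, 13.7 and 8.37 CPM at 9-10 days, against 70.5, 68.4 and 46.1 CPM at 7-8 days (-2.32 ± 0.53, adjusted p 0.00502). LEC2 gave 1.25, 1.03 and 1.26 CPM against 5.75, 6.36 and 5.99 CPM (-2.32 ± 0.51, adjusted p 0.00376). For both, every library of 9-10 days lay far below the lowest of 7-8 days. MYB115 (-3.92 ± 0.83) and MYB118 (-1.30 ± 0.24, adjusted p 0.00142), related MYB factors of the endosperm, also fell. DOG1, the dormancy gene, rose to 50.0, 58.5 and 58.0 CPM, against 8.73, 9.04 and 9.55 CPM at 7-8 days (2.60 ± 0.61, adjusted p 0.00556). The bZIP factors ABI5 (1.32 ± 0.46), BZIP67 (1.21 ± 0.33) and EEL (1.15 ± 0.30, adjusted p 0.00875) rose. FUS3 (0.47 ± 0.19, adjusted p 0.0705) and ABI3 (0.81 ± 0.34, adjusted p 0.0840) were higher in every library of 9-10 days, but did not pass. Both gained the call in fits to only the 9 or only the 6 CL37 libraries. They also gained it when CL37 7-8 C was left out, and when the A libraries of fae1 were dropped from the fit. Without 7-8 A, 2 regulators rose.

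Genes of abscisic acid, the hormone of maturation, rose in part. Of 20 tested, 5 rose and none fell (median 0.51). They were the phosphatase gene AHG3, a brake on the hormone's signal (1.21 ± 0.30, adjusted p 0.00755), the synthesis gene ABA2 (0.53 ± 0.16, adjusted p 0.0185), and 3 genes for the enzyme that breaks the hormone down. With only the 9 CL37 libraries in the fit 10 of the list rose. Of the breakdown genes, CYP707A1 gave 8.72, 9.28 and 10.3 CPM against 4.36, 4.14 and 4.86 CPM (1.07 ± 0.21, adjusted p 0.00229), CYP707A3 changed by 3.54 ± 0.69 (adjusted p 0.00197) and CYP707A2 by 2.02 ± 0.59 at about 1 CPM or less. Of 9 gibberellin genes, GA20OX2, a synthesis gene, rose (69.6, 53.9 and 65.1 CPM against 19.4, 13.2 and 25.2 CPM, adjusted p 0.00729), with a list median of -0.09. Of 18 jasmonate genes 3 rose and 2 fell (median 0.08), shares near the 13.2% and 12.6% of all tested genes, and 1 rose without 7-8 B or 9-10 B and none fell without 7-8 A. Of 23 genes that break down fatty acids by beta-oxidation or serve the glyoxylate cycle, 5 rose (21.7%) and 2 fell (8.7%), with a median of 0.32. In this last list ICL, isocitrate lyase, gave 207.9, 278.6 and 219.1 CPM against 38.4, 54.1 and 76.3 CPM (2.06 ± 0.53, adjusted p 0.00918). Of its members, 1 rose without 7-8 A or 9-10 B and 2 without 7-8 B, 9-10 A or 9-10 C.

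Genes of the suberin and cutin barriers rose in part. Of 23 tested, 11 rose and none fell (median 1.63). GPAT5, which makes suberin monomers in the seed coat, had 2.89, 6.96 and 3.56 CPM at 9-10 days, against 0.145, 0 and 0 CPM at 7-8 days, which is 88 against 2 counts and a 70.6-fold ratio with a 95% counting interval of 19.0 to 592 (adjusted p 0.00142). MYB9, a regulator of seed coat suberin, gave 4.72, 6.70 and 5.65 CPM against 0.0727, 0.0766 and 0.174 CPM (5.59 ± 0.85, adjusted p 0.000333). Its relative MYB107 gave 6.69, 8.76 and 8.16 CPM against 1.82, 3.45 and 1.04 CPM (1.86 ± 0.57, adjusted p 0.0218). All libraries of 9-10 days stood above those of 7-8 days in these genes.

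Further suberin genes rose as well. ASFT, which joins ferulate to suberin, gave 125.7, 190.2 and 148.4 CPM against 10.5, 18.4 and 8.59 CPM (3.62 ± 0.71, adjusted p 0.00238). The ABC transporters ABCG20 (37.6, 62.6 and 48.8 CPM against 4.87, 3.75 and 5.38 CPM, adjusted p 0.000105) and ABCG6 (6.69, 10.8 and 6.49 CPM against 0.364, 0 and 0 CPM, adjusted p 0.000982) export suberin precursors. CYP86A1, a fatty acid hydroxylase of suberin, rose by 4.71 ± 1.31 (adjusted p 0.0132). FAR5, which makes fatty alcohols, had 13 counts at 9-10 days and 0 at 7-8 days, at least 6.95-fold higher against a floor of 3 counts over the 3 libraries, and lost its call without any 1 of the libraries except 9-10 A, with the covariate and with no filter. From 8 to 10 of the 23 rose with a library left out.

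The 12 largest rises with a mean log2 CPM of at least 2 over all libraries were genes nearly silent at 7-8 days. AT2G41400 and AT2G41390, neighbouring genes of the Ole e 1 and extensin family on chromosome 2 (17259457 to 17260120 and 17257380 to 17258196, plus strand), had 8.72, 12.4 and 8.37 CPM and 6.36, 11.9 and 6.91 CPM at 9-10 days and no count at 7-8 days. They were at least 118-fold and at least 94.1-fold higher. The cupredoxin AT5G07475 was at least 95.2-fold higher, and AT3G06390, of the UPF0497 membrane protein family, at least 66.8-fold. AT2G22510, a hydroxyproline-rich glycoprotein, had 469 counts against 1 (a 752-fold ratio, counting interval 134 to 29772). The peroxidase AT1G68850 had 353 counts against 2 (283-fold, 77.8 to 2347). The rest were AT2G43390, AT5G20860, AT1G49960, AT4G03540, AT1G61050 and PDLP4. The 9-10 B library was the highest of its stage for 10 of these 12 genes and 9-10 C for 2.

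Genes of stress and detoxification rose, with uneven libraries at 9-10 days. Of 32 detoxification genes (glutathione transferases, glycosyltransferases and their regulators) 19 rose and none fell (median 1.27, or 1.23 with genes at 0 set to their bound). In the fit to only the 6 CL37 libraries, 22 of the list passed the filter on low counts, and 13 rose. GSTU11, which rose, had 10 counts at 9-10 days and 0 at 7-8 days. It lost its call without 9-10 A and with the replicate block. GSTU15, a glutathione transferase outside this list, fell (-5.80 ± 1.45, adjusted p 0.00756). UGT73B4 gave 12.5, 25.5 and 4.39 CPM at 9-10 days, against 0.291, 0.766 and 0.868 CPM at 7-8 days (4.43 ± 0.62, adjusted p 0.000178). GSTU24 gave 28.6, 39.9 and 13.8 CPM against 2.98, 1.61 and 2.26 CPM (3.57 ± 0.64, adjusted p 0.00130), and the regulator ANAC032 gave 22.7, 32.2 and 23.9 CPM against 3.64, 2.83 and 3.99 CPM (2.90 ± 0.46, adjusted p 0.000512). Of 14 stress regulators 7 rose and none fell (median 1.31), with 1 falling under DESeq2's size factors, DESeq2 or upper quartiles. With only the 6 CL37 libraries 10 of them passed the filter and 4 rose. WRKY33, a factor induced by wounding and pathogens, gave 6.89, 10.1 and 1.26 CPM against 0.582, 0.459 and 0.434 CPM (3.59 ± 0.53, adjusted p 0.000254). ZAT6 gave 16.0, 16.0 and 12.8 CPM against 1.02, 1.84 and 1.30 CPM (3.43 ± 0.52, adjusted p 0.000332). The groups did not overlap in these genes. Of all that rose, 13 of the 19 detoxification genes and 5 of the 7 stress regulators had no overlap between the stages, and the others did. Among all tested members, 13 of 32 detoxification genes and 8 of 14 stress regulators were higher without overlap, against 23.7% of all tested genes. The 9-10 C library was the lowest of its stage for 15 of the 19 detoxification genes that rose and 5 of the 7 stress regulators. With 1 library left out, 15 to 19 detoxification genes and 5 to 7 stress regulators rose.

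Genes of the endoplasmic reticulum (ER), where storage proteins fold and the hydroxylase works, rose in part. Of 32 tested, 11 rose and none fell (median 0.49). The oxidoreductase ERO1, which drives disulfide formation, gave 14.2, 17.3 and 13.2 CPM against 5.53, 5.13 and 5.29 CPM (1.47 ± 0.36, adjusted p 0.00705). BZIP60, the sensor-cleaved factor of the unfolded protein response, gave 73.3, 88.4 and 58.0 CPM against 43.6, 34.3 and 40.3 CPM (0.89 ± 0.20, adjusted p 0.00433). NAC103, one of its targets, gave 4.53, 5.15 and 0.209 CPM against 0.727, 0.383 and 0.868 CPM (2.37 ± 0.59, adjusted p 0.00720). Its 9-10 C library lay below all libraries of 7-8 days, and the call was lost without 9-10 A. The abundant chaperones BIP1 (0.37 ± 0.21, adjusted p 0.188) and BIP2 (0.40 ± 0.20, adjusted p 0.153) did not pass. The 9-10 C library was the lowest of its stage for 9 of the 11 that rose. Without 7-8 B, 9-10 A or 9-10 B 7 rose, and without 7-8 C 16 rose. Of 10 heat shock genes, HSA32 rose (0.97 ± 0.32, adjusted p 0.0316; median of the list 0.72) and lost its call with the covariate and without any 1 library except 7-8 C.

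Cell division genes fell almost without exception. Of 33 tested, 32 fell and none rose (median -1.57). All 33 were lower without overlap of the stages, against 23.5% of all tested genes. Their summed level was 449.8, 405.6 and 399.1 CPM at 9-10 days, against 1150.3, 1151.3 and 1197.1 CPM at 7-8 days. PCNA1, the sliding clamp of DNA replication, gave 10.0, 6.96 and 6.49 CPM against 38.2, 41.0 and 32.3 CPM (-2.19 ± 0.48, adjusted p 0.00380). KN, the syntaxin of the cell plate, gave 113.9, 103.6 and 90.8 CPM against 299.5, 325.3 and 336.5 CPM (-1.64 ± 0.31, adjusted p 0.00168). The mitotic cyclin CYCB1;1 (-1.95 ± 0.37, adjusted p 0.00157) and TSO2, for making deoxynucleotides (-1.80 ± 0.36, adjusted p 0.00226), fell by similar amounts. CYCD3;1, a cyclin of the G1 phase, was the member that did not pass (-0.22 ± 0.18, adjusted p 0.373). From 28 to 31 fell with a library left out.

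Endosperm genes fell with them. Of 12 genes of the list, 7 passed the filter on low counts and were tested. Of these 7, 6 fell and none rose (median -2.40). With DESeq2, with only the 9 CL37 libraries, without the A libraries of fae1 or without 7-8 C, 1 member rose. ZOU, a factor that drives breakdown of the endosperm, gave 5.71, 2.58 and 4.19 CPM at 9-10 days, against 25.3, 19.9 and 17.8 CPM at 7-8 days (-2.23 ± 0.37, adjusted p 0.000605). ALE1, its target protease, gave 21.6, 9.02 and 11.1 CPM against 68.9, 94.3 and 67.7 CPM (-2.40 ± 0.56, adjusted p 0.00553). FIS2, a Polycomb gene of the endosperm, had 3 counts against 118 (ratio 0.041, 95% counting interval 0.008 to 0.122), FWA 1 against 34 and PHE1 1 against 76. FWA and PHE1 lost their calls with the covariate and without 7-8 A or any 1 library of 9-10 days. EPR1, an extensin-like gene of the endosperm facing the embryo, held most of the counts of the list and went the other way, with 2539, 2301 and 3312 CPM against 531, 1180 and 1794 CPM (1.22, adjusted p 0.0551). Hence the summed level of the list was higher at 9-10 days (2544 to 3572 CPM) than at 7-8 days (915 to 2220 CPM). Without 7-8 A or any 1 library of 9-10 days 3 of the 7 fell, 4 fell without 7-8 B and 5 without 7-8 C. Of 11 embryo patterning genes, WOX8, a gene of the suspensor lineage, fell (2.23, 0.258 and 0.419 CPM against 17.1, 12.6 and 8.16 CPM, adjusted p 0.00296), with a list median of -0.03.

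Seed coat genes for tannins and mucilage fell in part. Of 23 mucilage genes, 12 fell and none rose (median -0.70). MUM4, which makes the rhamnose of mucilage, gave 155.2, 79.9 and 89.6 CPM at 9-10 days, against 353.8, 458.7 and 238.1 CPM at 7-8 days (-1.69 ± 0.38, adjusted p 0.00424). MUM2, a galactosidase that trims mucilage, gave 28.4, 15.0 and 18.8 CPM against 59.6, 107.5 and 58.8 CPM (-1.82 ± 0.39, adjusted p 0.00355). The stages did not overlap in either gene. The 7-8 C library was the lowest of its stage for 11 of the 12 genes that fell, and the number that fell was 5 without 7-8 B or 9-10 B and 4 without 9-10 C. Of 17 tannin and flavonoid genes 5 fell (29.4%) and 1 rose (5.88%), against 12.6% and 13.2% of all tested genes (median -0.46). BAN, the gene of proanthocyanidin synthesis, gave 5.58, 5.93 and 9.63 CPM against 29.7, 19.3 and 21.9 CPM (-1.78 ± 0.54, adjusted p 0.0202), with no call without 7-8 A, 9-10 A or 9-10 B or with the covariate. FLS1, which leads to flavonols instead, rose by 0.56 ± 0.21 (adjusted p 0.0478). No member rose without any 1 of the 6 libraries, with DESeq2's size factors or upper quartiles, with the replicate block, with the covariate or with no filter. None of the 17 fell without 7-8 A or 9-10 A, 1 without 9-10 B and 3 without 7-8 B or 9-10 C.

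Photosynthesis genes, active in the green embryo, fell in part. Of 49 tested, 10 fell (20.4%, against 12.6% of all tested genes) and none rose (median -0.29). Scaling with DESeq2's size factors or upper quartiles gave 14, and fits to only the 9 or the 6 CL37 libraries gave 16 and 18. Without 7-8 C 1 rose. PSBQA, of photosystem II, gave 111.1, 112.1 and 99.4 CPM at 9-10 days, against 212.4, 226.5 and 252.6 CPM at 7-8 days (-1.10 ± 0.22, adjusted p 0.00225). The small Rubisco subunit gene RBCS3B gave 21.7, 16.5 and 18.0 CPM against 66.9, 81.9 and 83.4 CPM (-2.03 ± 0.54, adjusted p 0.0111). The antenna gene LHCB1.3 gave 6962, 5696 and 5599 CPM against 7819, 9134 and 8273 CPM and did not pass (adjusted p 0.0521).

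Among the 12 largest falls, the 7-8 A library was the highest of its stage for every gene. AT1G19320, of the thaumatin family, gave 0.656, 0.258 and 1.26 CPM at 9-10 days, against 127.4, 20.4 and 30.8 CPM at 7-8 days (-6.36 ± 1.66, adjusted p 0.00949). AT1G43667, of the 2S albumin and lipid transfer superfamily, had 2 counts against 366 (ratio 0.009, 95% counting interval 0.001 to 0.032). AT3G49307, a protein with no named function, gave 0.459, 0 and 0.209 CPM against 56.7, 9.57 and 15.0 CPM (-6.34 ± 1.33, adjusted p 0.00328). AT2G44250, AT2G44240 and AT5G05030 belong to the DUF239 family. The others were the noncoding AT2G19796, the cysteine-rich LCR73, AT2G19802, AT2G19970, the glutathione transferase GSTU15 and AT1G26797. All were lower in every library of 9-10 days. AT2G44240, AT5G05030, AT2G19970 and LCR73 lost their calls without the 9-10 A library, and AT2G44240 and AT2G19970 also without 7-8 A. AT2G19970 further lost it without 9-10 B or 9-10 C and with no filter.

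Markers of the silique wall and vegetative tissue were checked because seeds were taken out of frozen siliques. Of 11 tested 3 rose and 2 fell (median -0.21), and IND, FUL and VND7 did not pass the filter on low counts. The summed level was 296.4, 303.6 and 313.3 CPM at 9-10 days, against 106.3, 93.4 and 97.1 CPM at 7-8 days. Most of it was TGG1, a myrosinase of guard cells and phloem idioblasts, with 264.6, 267.0 and 280.2 CPM against 62.0, 44.2 and 69.2 CPM (2.21 ± 0.70, adjusted p 0.0246). TGG2, the other myrosinase, went the other way with 0.131, 0.773 and 0 CPM against 14.0, 2.91 and 0.955 CPM (-4.72 ± 1.39, adjusted p 0.0187). APL (AT1G79430, log2 fold 2.0) also rose and ALC (AT5G67110, log2 fold -1.57) also fell. APL kept its call with any 1 library left out (adjusted p 0.0183 to 0.0404), while ALC lost it without 7-8 A, 7-8 B, 9-10 A or 9-10 B. VSP1 (-2.37 ± 1.05, adjusted p 0.102) and VSP2 (-2.33 ± 1.05, adjusted p 0.108), which store nitrogen in vegetative tissue, did not pass. TGG1 lost its call without 7-8 A, 7-8 B, 9-10 B or 9-10 C, and TGG2 without 7-8 A, 9-10 A or 9-10 C, and both with the covariate. The part of such tissue in the results above was not tested. Among embryo markers, STM (1.97, 1.29 and 2.09 CPM against 2.25, 1.76 and 1.56 CPM) was present at both stages, and WOX2 and the endosperm marker AGL62 did not pass the filter.

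The step that followed, from 9-10 to 11-12 days, changed 5887 genes (31.2%), 3045 upward (16.1%) and 2842 downward (15%). Both steps use the libraries of 9-10 days, so their values are given side by side only. Storage protein genes had a median log2 fold of 2.07 in the early step and 0.54 in the late step, where none of the 13 passed. LEA proteins had 2.38 and 2.42, and 18 of 23 rose in the late step. Cell division genes had -1.57 and -1.72, with 25 of 33 falling late, and photosynthesis genes -0.29 and -1.15, with 48 of 49 falling late. Plastid fatty acid synthesis had 0.01 and -0.58, and 26 of 40 fell in the late step. Detoxification genes had 1.27 and 2.73, and the cutin and suberin list 1.63 and 1.47.

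**Figure D3:**
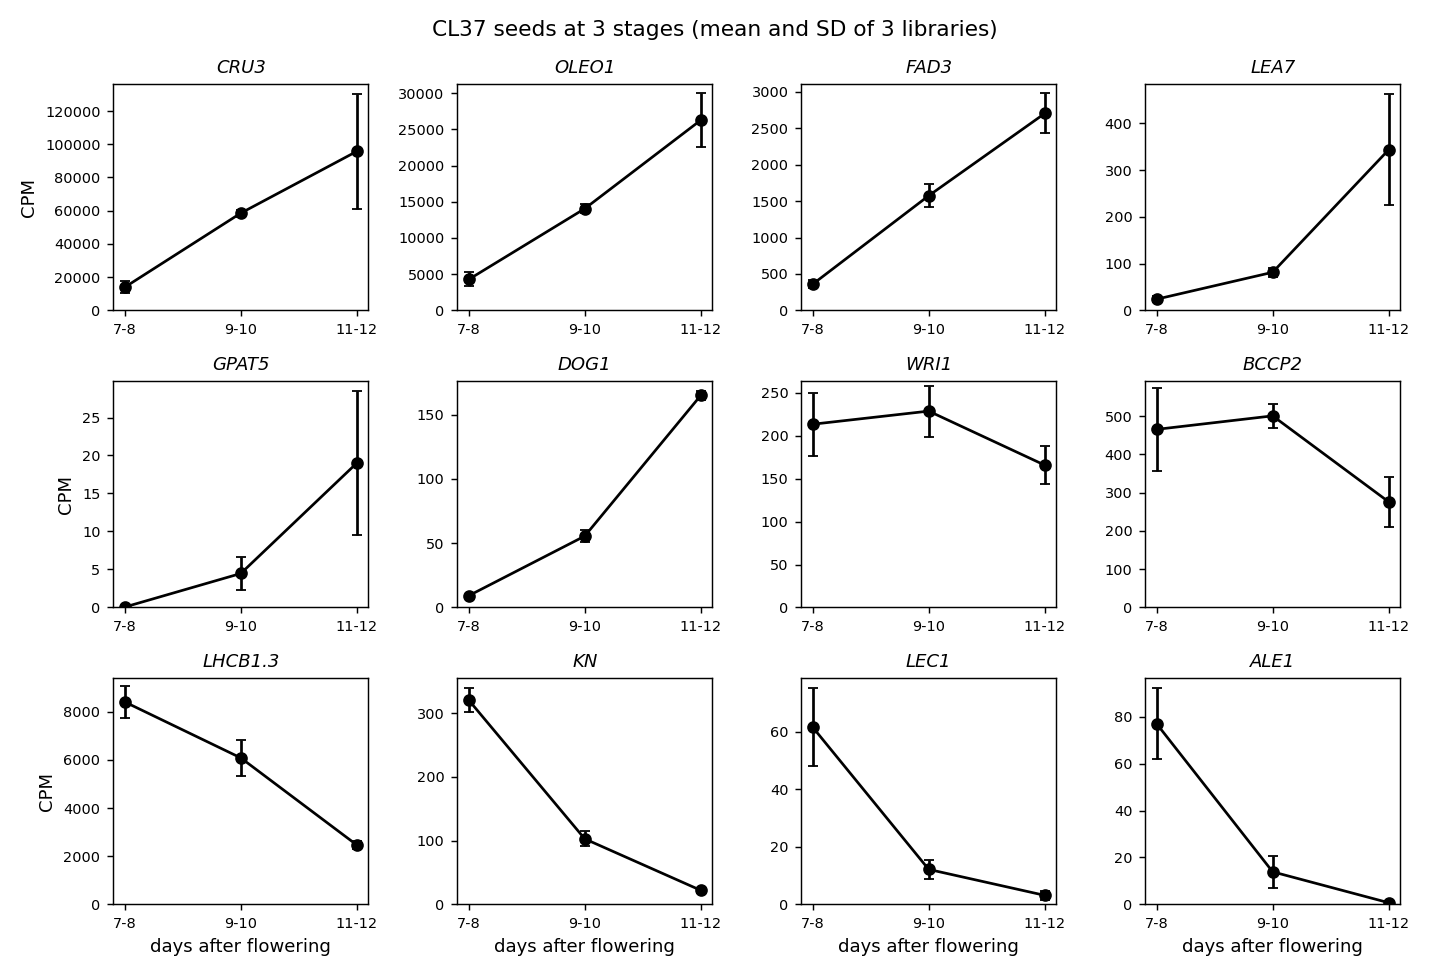
Mean CPM with SD of 3 CL37 libraries at each of 7-8, 9-10 and 11-12 days after flowering, for 12 genes on linear axes that start at 0. The SD bars of WRI1 and BCCP2 overlap between the first stages and their means are lower at the last, while FAD3 reaches 2705 ± 276 CPM and KN 22.1 ± 4.34 CPM at 11-12 days.

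Mean levels at the 3 stages are given for single genes. CRU3 stood at 13934 ± 3524, 58555 ± 2116 and 95767 ± 34736 CPM at 7-8, 9-10 and 11-12 days (mean ± SD, n = 3). DOG1 stood at 9.10 ± 0.413, 55.5 ± 4.73 and 165 ± 3.44 CPM, and LEC1 at 61.6 ± 13.5, 12.2 ± 3.32 and 3.16 ± 1.52 CPM. The log2 fold of the early step minus that of the late step did not pass for DOG1 (1.03, adjusted p 0.62) or LEC1 (-0.39, adjusted p 0.88). WRI1 stood at 213.5 ± 36.8, 228.8 ± 29.8 and 165.8 ± 21.9 CPM, and its late fall of 0.46 passed (adjusted p 0.0290). The difference between the steps was called for 258 genes (1.37%), 127 with the higher log2 fold in the early step (0.672%) and 131 with the lower (0.693%). Among the named ones, AT1G21540, of the acyl-activating enzyme family, had 248 counts at 9-10 days and 3 at 7-8 days (133-fold, 95% counting interval 44.8 to 647) and a late log2 fold of 0.42 (adjusted p of the difference 0.0160). CYP76C2, a cytochrome P450, had -2.17 and 2.93 (adjusted p 0.0346), PDLP1, of plasmodesmata, -1.39 and 2.65 (adjusted p 0.0346), and EMB3120 -1.58 and 1.59 (adjusted p 0.0186). This count rests on single libraries. It was 0 without any 1 library of 9-10 days, 25 without 7-8 A, 49 without 7-8 B and 398 without 7-8 C. It was 26 without 11-12 A, 231 without 11-12 B and 316 without 11-12 C.

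In PDAT, the same step changed 6150 genes (32.5%), of which 3063 rose (16.2%) and 3087 fell (16.3%). The PDAT and CL37 libraries are separate. Of the genes that rose, 1773 were shared, 71.1% of those in CL37 and 57.9% of those in PDAT. Of the genes that fell, 1574 were shared, 66.2% of those in CL37 and 51% of those in PDAT. Opposite calls were made for 2 genes that rose and 1 that fell in CL37. The difference between the lines in this step was called for 1 gene (0.00529%) by edgeR and 25 by DESeq2, with 1402 below an unadjusted p of 0.05.

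That gene was PARG2 (AT2G31865, chromosome 2, 13546544 to 13549571, minus strand), a poly(ADP-ribose) glycohydrolase that answers DNA damage and pathogens. In CL37 it gave 6.30, 7.47 and 1.88 CPM at 9-10 days, against 0.509, 0.153 and 0.434 CPM at 7-8 days (3.83 ± 0.45, adjusted p 3.307e-05). In PDAT it gave 0.783, 0.498 and 0.908 CPM against 0.961, 0.781 and 1.14 CPM. The difference between the lines was 4.11 ± 0.65 (adjusted p 0.0344). The count of such genes was 0 to 7 with a library left out, 7 of them without CL37 7-8 A, 2 without CL37 9-10 C, and 0 without CL37 7-8 B, 7-8 C, 9-10 A or 9-10 B or without any 1 of the PDAT libraries.

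**Figure D4:**
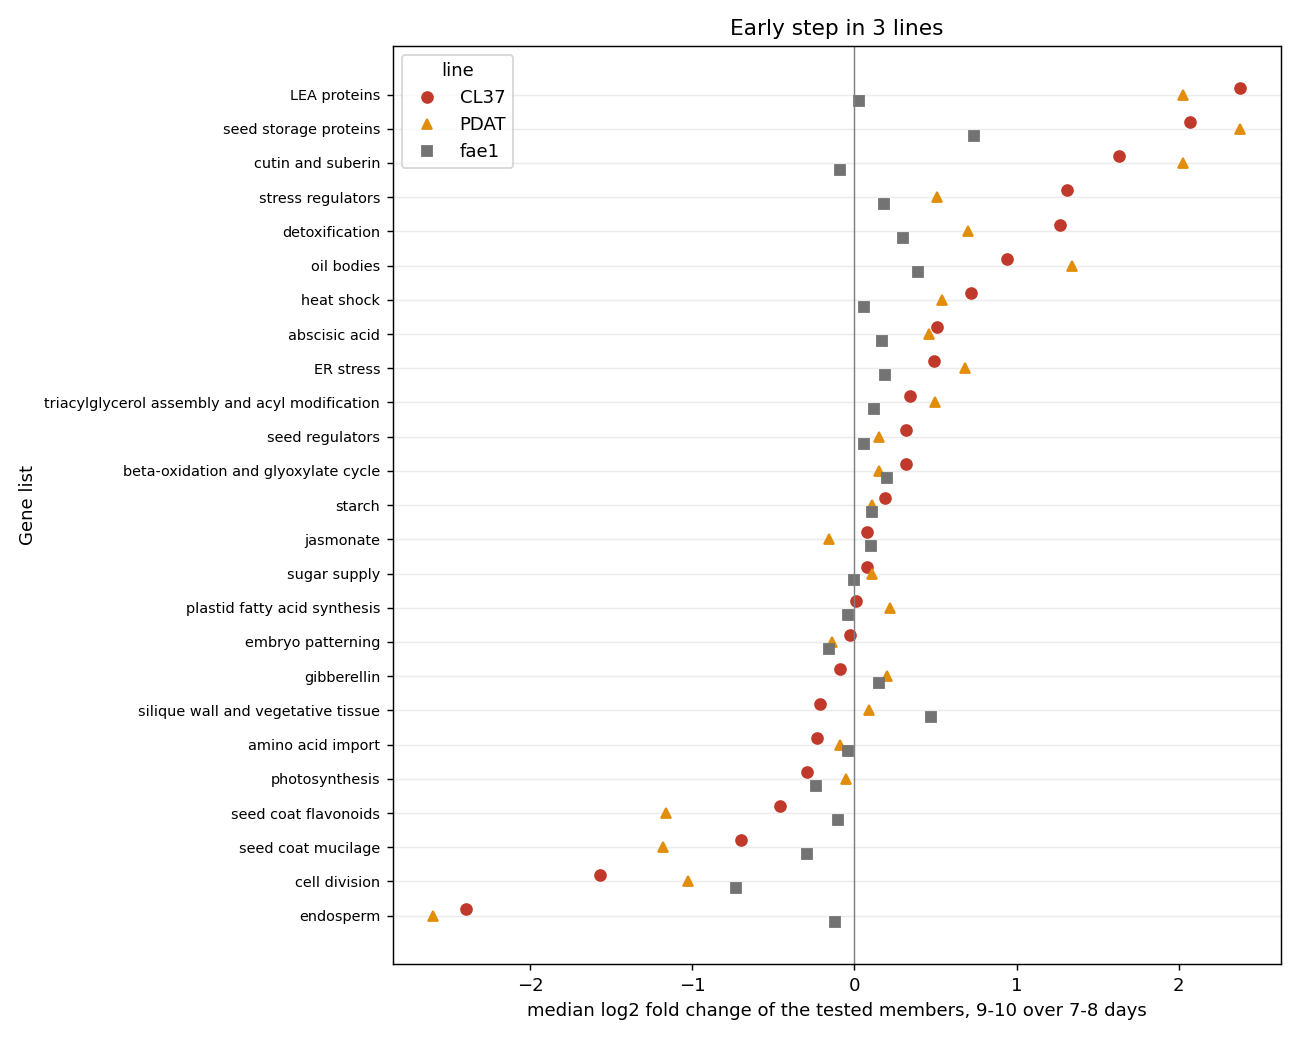
Median log2 fold of 9-10 over 7-8 days of the tested members of each gene list in CL37 (red circles), PDAT (orange triangles) and fae1 (grey squares), in the order of the CL37 medians. Storage proteins lie at 2.07, 2.38 and 0.74, and the fae1 squares include a 7-8 A library that stands apart.

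List medians in CL37 and PDAT were 2.07 and 2.38 for storage proteins, 2.38 and 2.03 for LEA proteins, 1.63 and 2.03 for the cutin and suberin list and -1.57 and -1.03 for cell division. They were 1.27 and 0.70 for detoxification, with 19 and 11 genes rising, 1.31 and 0.51 for stress regulators, with 7 and 3 rising, and -0.46 and -1.16 for tannin and flavonoid genes. No single member of these 3 lists passed the test of the difference.

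In fae1 the step gave no call by edgeR or DESeq2 (0% of those tested), with 1477 genes below an unadjusted p of 0.05 by edgeR and 1540 by DESeq2. Among the fae1 libraries of 7-8 days, A stood apart, in that its 20 most abundant genes held 41.9% of counts, against 9.02% and 12.9% in B and C. The A library of 9-10 days was left out together with it in an alternative. With both of these A libraries left out, at 7-8 and 9-10 days, 5589 genes changed in fae1, 2944 upward and 2645 downward, and 6407 in CL37. The difference between CL37 and fae1 in this step was called for 17 genes (0.09%), all with the higher log2 fold in CL37. Each of these calls was lost without the fae1 A libraries, where 0 genes passed and 937 had an unadjusted p below 0.05. With 1 library left out, the count was 118 without fae1 7-8 B, 99 without fae1 7-8 C, 66 without fae1 9-10 C, 2 without CL37 9-10 C, and 0 without any other CL37 or fae1 library of these stages.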

How the data were processed

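The authors deposited a file of raw read counts for each library and a table of FPKM with 1 pooled value per line and stage, of which 7 columns were not used. Per the submitters' processing notes, bcl2fastq 1.8.2, Trimmomatic 0.22, TopHat2 2.0.3, HTSeq 0.5.4p3, Cufflinks 2.0.1 and the build TAIR10 were used; roles, settings and the use of strand are not given in the sources used here, so overlapping and antisense genes are uncertain. The libraries were made with the TruSeq mRNA kit, per the labels. FPKM tracked the counts per length over 16312 genes at 9-10 days (Pearson r of log2 values 0.963) and 16564 at 7-8 days (0.965, across genes).

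The members and gene lists were chosen with earlier results of these data known. Counts, without the summary lines (8.28% to 16.8% of a file), were scaled by TMM, filtered by expression over the 9 groups and fitted with the robust quasi-likelihood model of edgeR 4.0.16 (R 4.3.3, limma 3.58.1), with 2-sided contrasts. The fit took in the 27 libraries, whose common biological coefficient of variation was 20.9%. All 9 groups shared 1 estimate of the spread. P-values were adjusted by Benjamini-Hochberg over 18897 genes, and the fit was tested on simulated data. Alternatives were DESeq2 1.42.0, other scalings, filters and libraries in the fit, a replicate block, a covariate and leaving out each library. Of 565 list members written, 512 matched by symbol, 51 by description and 2 were left out, and 521 were tested.

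Named genes were the 12 largest rises and falls among called genes without overlap and with an average log2 CPM of at least 2, up to 4 called members per list with the largest change (the 2 with the highest CPM if none), 14 fixed lipid and regulator genes, the 4 largest each way in each test of a difference, and the 10 with the highest CPM. Further list members named for their role were chosen after their values were seen. Windows and coordinates are RefSeq's TAIR10.1, read with Python 3.11.15. Counting error alone did not account for the spread between replicates (chi-square divided by its degrees of freedom 2.88 to 24.0 in these 6 libraries), so intervals and floors (3 counts) cover counting error only.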

Additional observations from a re-analysis of the deposited data

Results flagged for a closer look

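The early step of CL37 differed from that of another line, by the edgeR test of the difference itself, in 1 gene against PDAT and 17 against fae1. PARG2 differed by 4.11 on the log2 scale from PDAT, being higher at 9-10 days in all 3 CL37 libraries and overlapping between the stages in PDAT.

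Against fae1 the log2 differences, CL37 minus fae1, were 9.83 for AT5G37690, 9.67 for AT2G22510, 8.86 for AT5G44550, 8.70 for GASA3, 8.63 for KIN1, 7.60 for AT3G04190, 7.42 for AT4G38080, 6.03 for AT1G05450, 5.98 for AT4G20390, 5.64 for AT2G43880, 5.59 for PELPK2, 5.02 for ABCG23, 3.21 for ABCG20, 2.15 for AT5G64190, 1.88 for AT5G42050, 1.56 for ACR7 and 1.36 for BAM3, each with an adjusted p of 0.0486 (edgeR). Several of them had few or no counts in CL37 at 7-8 days, where the fitted size depends on the prior count. GASA3 is an example of the fae1 side: the A library of 7-8 days held 81.1 CPM, against 1.04 and 1.34 CPM in B and C. None of the 17 was called with both fae1 A libraries of these stages left out.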

How the results depend on the processing

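The number of genes changed in the early step was within 1.5 times of 4869 under every other scaling, tool, filter, covariate and choice of libraries in the fit (3248 to 6407), and 2753 to 4605 with a CL37 library left out. The late step stood at 4350 to 6413 genes, and 4034 to 5450 with a library left out. The difference between the steps stood at 258 genes, at 640 with DESeq2 and 823 with only the 9 CL37 libraries, and at 0 to 398 with a library left out. The difference from PDAT stood at 1 gene, 25 with DESeq2 and 0 to 7 with a library left out. The difference from fae1 stood at 17 genes and 153 with DESeq2. It stood at 0 with the covariate (1073 below an unadjusted p of 0.05), with no filter (2009) and without the fae1 A libraries (937), and at 0 to 118 with a library left out. The cause was not tested. In alternatives chosen after seeing the data, the step changed 6312 genes in PDAT with DESeq2 and 7691 without the fae1 A libraries, against 6150, and in fae1 0 and 5589, against 0.

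Deviations from the stage means of libraries with the same letter correlated at 0.118 (A), 0.023 (B) and 0.17 (C) across genes. Pairs of different letters lay between -0.185 and 0.074. Each library of 9-10 days correlated best with its own letter, while 7-8 B correlated better with 9-10 A (0.074). The letters were not taken to pair the samples, and whether they do was not settled by these values. With the replicate block 4378 genes changed in the early step, 5506 in the late step and 279 between the steps, 1 differed from PDAT and 0 from fae1 (1433 below an unadjusted p of 0.05).

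Of 2052 pairs of a named gene and an alternative, 1860 kept direction and side of the threshold, 178 lost the call, 14 gained it and 0 reversed. Of 120 called named genes, 45 lost the call under at least 1 alternative. With 4126510 and 5030078 gene counts, the 9-10 B and C libraries are the shallowest of the 6, and genes under about 1 CPM rest on few counts there.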

Other observations

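Product families were chosen after the values were seen and are given as a description. Over all tested genes the shares were 13.2% higher and 12.6% lower. Some family members are also in the gene lists, such as ABCG6 among the ABC-2 transporters and the mucilage gene AT3G50990 among the peroxidases. Of 27 tested genes of the UPF0497 family of membrane proteins, 12 were higher and 2 lower at 9-10 days than at 7-8 days in CL37 (median log2 fold 0.67). Of 77 hydroxyproline-rich glycoproteins, which belong to the cell wall, 24 were higher and 6 lower (0.21). Of 25 peroxidases 11 were higher and 6 lower (0.57), and of 18 ABC-2 transporters 5 were higher and 2 lower (0.55).

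Other families held more lower than higher genes. Of 23 low-molecular-weight cysteine-rich proteins 16 were lower and 1 higher, with a median of -3.33 in CL37, -2.60 in PDAT and -0.54 in fae1. Of 9 self-incompatibility S1 proteins 5 were lower and none higher (-3.84 in CL37, -3.55 in PDAT and 0.07 in fae1). Of 27 DUF239 proteins 10 were lower and 2 higher (-2.32, -2.20 and -0.20). The fae1 medians include the A library of the younger fae1 stage, which stood apart from B and C. They therefore do not settle whether these families fell in fae1.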
